A study of Mus musculus with 14 samples.

Results

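The proteasome genes described here are the 49 genes, of the 10210 in the table of natural killer (NK) cell libraries, whose symbol is Pomp or begins with Psma to Psmg followed by a number. They were chosen by symbol alone, with no measured value in the rule, though earlier results of these data were known at the time. By textbook role, 31 encode the constitutive particle: 7 genes of the alpha ring, 7 of the constitutive beta ring, of which 3 are catalytic, 6 ATPases and 11 non-ATPases of the 19S cap. Another 3 encode the catalytic subunits of the immunoproteasome (Psmb8, Psmb9 and Psmb10), 2 the 11S activator (Psme1 and Psme2), 2 the nuclear activators (Psme3 and Psme4) and 1 the inhibitor Psmf1. Assembly factors account for 8 genes, 5 for the 20S core (Psmg1, Psmg2, Psmg3, Psmg4 and Pomp) and 3 for the base of the 19S cap (Psmd5, Psmd9 and Psmd10). The pattern also took 2 names that belong to no class above: Psmc3ip, which is not a proteasome subunit, and Psme2b, a near copy of Psme2 with which it may share reads. Both stay in the counts of genes given below. The testis subunit Psma8 and the thymus subunit Psmb11 were not analysed here.

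NK cells were compared in 3 groups of BALB/c females, 8 weeks old: 3 libraries from spleens of healthy mice, 4 from spleens of mice that carried a tumour grown from injected 4T1-GFP mammary carcinoma cells, and 4 from such tumours. Tumours grew in the lower left mammary fat pad, and no group carried a genetic change or drug treatment in the labels. The labels call the libraries independent replicates without saying whether animals were pooled or whether spleen and tumour came from the same mice, so p-values measure the spread between these libraries. Tumour tissue went through an enzyme digestion (collagenase A with DNase) at 37 °C, while spleens were crushed and treated with red cell lysis buffer on ice, so an effect of tissue cannot be told apart from one of preparation. A further 3 libraries came from sCAFs, a population of cancer-associated fibroblasts, and are used only for a side comparison.

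The 20S proteasome is a barrel of stacked rings whose inner beta subunits cut proteins, and the 19S cap recognises ubiquitin-tagged proteins, unfolds them and feeds them in. In lymphocytes, and in other cells exposed to interferon, Psmb8, Psmb9 and Psmb10 take the places of Psmb5, Psmb6 and Psmb7, and the resulting immunoproteasome favours peptides that suit MHC class I. Chaperones such as Pomp and the Psmg proteins build the core, while Psmd5, Psmd9 and Psmd10 hold the ATPases of the cap during assembly.

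Sequence near the start site is shown for some genes only, chosen by role, call or position. Psmb8 is an immunoproteasome gene that interferon induces, and Psmb5 is its constitutive counterpart. Psme1 and Psme4 were both called in tumour NK cells. Psmb9 and Tap1 are neighbours transcribed in opposite directions, and the stretch they share is shown. Psmb8, Psmb5 and Psmb9 were called in no comparison of the main edgeR fit. The sequences are those of RefSeq on GRCm38.p6, 5′ to 3′ on the strand of the named gene. Capitals mark a match to a motif: TTCNNNGAA (the GAS type, bound by STAT factors) in Psmb8, GAAA followed after any 2 bases by another GAAA (the IRF type) on the opposite strand in Psme1, TGACNNNGC (the core of the antioxidant response element, bound by NRF1 and NRF2) in Psmb5 and on the opposite strand in Psme4, and CCAAT between Psmb9 and Tap1.
Psmb8: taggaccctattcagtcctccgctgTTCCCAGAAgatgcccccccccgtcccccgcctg
Psme1: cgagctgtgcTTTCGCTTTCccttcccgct
Psmb5: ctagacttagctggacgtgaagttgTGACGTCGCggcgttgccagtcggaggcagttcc
Psme4: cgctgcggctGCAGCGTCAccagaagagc
Psmb9 and Tap1: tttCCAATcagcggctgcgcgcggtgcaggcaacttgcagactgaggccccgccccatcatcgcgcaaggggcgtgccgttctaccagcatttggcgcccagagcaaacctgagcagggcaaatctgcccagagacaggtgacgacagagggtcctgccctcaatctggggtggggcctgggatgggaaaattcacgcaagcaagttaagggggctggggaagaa

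These stretches lie at chr17:34198073-34198131 (plus strand, Psmb8), chr14:55578493-55578522 (plus, Psme1), chr14:54618009-54618067 (minus, Psmb5), chr11:30771758-30771786 (plus, Psme4) and chr17:34187331-34187555 (written on the plus strand, that of Tap1). Counted from each RefSeq start site, with no base 0, the capitals span bases -97 to -89 in Psmb8, 10 to 19 in Psme1, -47 to -39 in Psmb5 and -7 to 2 in Psme4. The last stretch fills all 225 bases between the start sites of Psmb9 and Tap1. Both strands of windows from 250 bases before to 50 after each start were searched, which covered 45 windows of 42 proteasome genes. The IRF type was found in 5 of the 45 windows against 3.44% of all 32851 windows, the GAS type in 3 against 8.3%, CCAAT in 14 against 37.4% and the antioxidant core in 6 against 12.4%. The IRF matches were in Psmb3, Psmd4, Psmd9, Psmg4 and Psme1, and none was in Psmb8, Psmb9, Psmb10 or Psme2. The windows of Psmg3 and Psmd5 held none of the 4 motifs. A match is a string of letters and not a measured binding site.

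The NK libraries held 559688 to 1966963 counts each, and the proteasome genes took 0.92% to 1.062% of the counts of a library. Levels below are counts scaled to a common library size (CPM), and 3 counts correspond to 1.525 to 5.36 CPM on plain totals, a limit that covers counting error only. Of 6 NK markers listed, 5 were in the table (Ncr1, Klrb1c, Eomes, Prf1 and Gzma) and present in every group. Together they made up 1.95% to 2.32% of counts in spleen libraries and 1.34% to 1.65% in tumour libraries. Of 10 macrophage and monocyte markers listed, 7 were in the table, with a summed share of 0.00107% to 0.0028% in spleen libraries, where 2 of the 7 were at 0 in every library of a group, and 0.00365% to 0.0216% in tumour libraries. Of 8 neutrophil markers 4 were in the table, at 0.00014% to 0.00119% in spleen and 0.00557% to 0.0153% in tumour libraries, and of 8 carcinoma or epithelial markers 2 were, at up to 0.000357% and up to 0.0051%. The lists for fibroblasts, endothelial cells, B cells, T cells and dendritic cells, with 1 to 3 genes each in the table, summed to at most 0.0185% in any library. The part of these cells in the results was not tested, and in bulk libraries fewer cells of a type and less RNA per cell cannot be told apart. By distance between libraries of the same group (chi-square per degree of freedom over genes), the spleen libraries of each group fell into 2 sides. Tumour-bearing replicates 1 and 2 differed by 2.594 and replicates 3 and 4 by 2.575, whereas pairs across differed by 6.004 to 7.49. Healthy replicate 1 stood at 7.108 and 7.978 from replicates 2 and 3. These distances do not say which sides of the 2 groups belong together. The labels name no batch, and earlier results of these data had shown this split with a difference in GC content.

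Few proteasome genes differed between the groups, and most of the measured differences were small. Their summed level was 9169 ± 1070 CPM (SD, n = 3) in healthy spleen, 10370 ± 608 (SD, n = 4) in tumour-bearing spleen and 10740 ± 630 (SD, n = 4) in tumour NK cells. The tumour libraries, at 9845 to 11320 CPM, overlapped the tumour-bearing ones and lay just above the highest healthy one, at 9830 CPM. As a share of plain counts these genes took 0.92% to 1.03% in healthy and 1.01% to 1.06% in tumour-bearing spleen libraries. In tumour libraries they took 0.954% to 1.02%, so the separation from healthy spleen rests on the scaling. A filter on low counts left 48 of the 49 for testing. Psmd9, a chaperone of the cap, failed it, with 1 to 9 counts in each library. A gene was called at an adjusted p under 0.05 from edgeR's quasi-likelihood test, with Benjamini-Hochberg adjustment over the 8471 genes tested.

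In tumour NK cells against tumour-bearing spleen NK cells, 3 of the 48 genes tested rose (Psmc6, Psme1 and Psme4). A further 4 fell: Psmg3, Psmd5, Psmd7 and Psmc3ip, the last of which is not a proteasome subunit. These 7 are 14.6% of the 48 tested, where 29.0% of all genes were called, 15.8% higher and 13.2% lower. The median log2 fold change was -0.06 over the proteasome genes and 0.001 over all genes. Log2 fold changes lay within 0.25 of 0 for 33 of the 48, and for 35.7% of all genes. The libraries of the groups did not overlap for 9 of the 48 (18.8%), against 29.7% of all genes.

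Against healthy spleen NK cells, 3 rose in tumour NK cells (Psmb4, Psmc6 and Psme1) and 2 fell (Psmg3 and Psmd5), 10.4% of the 48 where 30.5% of all genes were called, 16.5% higher and 14.0% lower. Groups did not overlap for 8 of the 48 (16.7%), against 34.8% of all genes. Both tumour comparisons use the same tumour libraries. Between the spleens, tumour-bearing against healthy, none of the 48 was called by edgeR or by DESeq2, and 5 had an unadjusted p under 0.05. Of all genes 1.58% were called, 1.23% higher and 0.354% lower, and 11.2% had an unadjusted p under 0.05. Groups did not overlap for 8 of the 48 (16.7%), against 12.2% of all genes. In that comparison 42 of the 48 log2 fold changes were above 0, with a median of 0.13 against -0.004 over all genes.

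**Figure D1:**
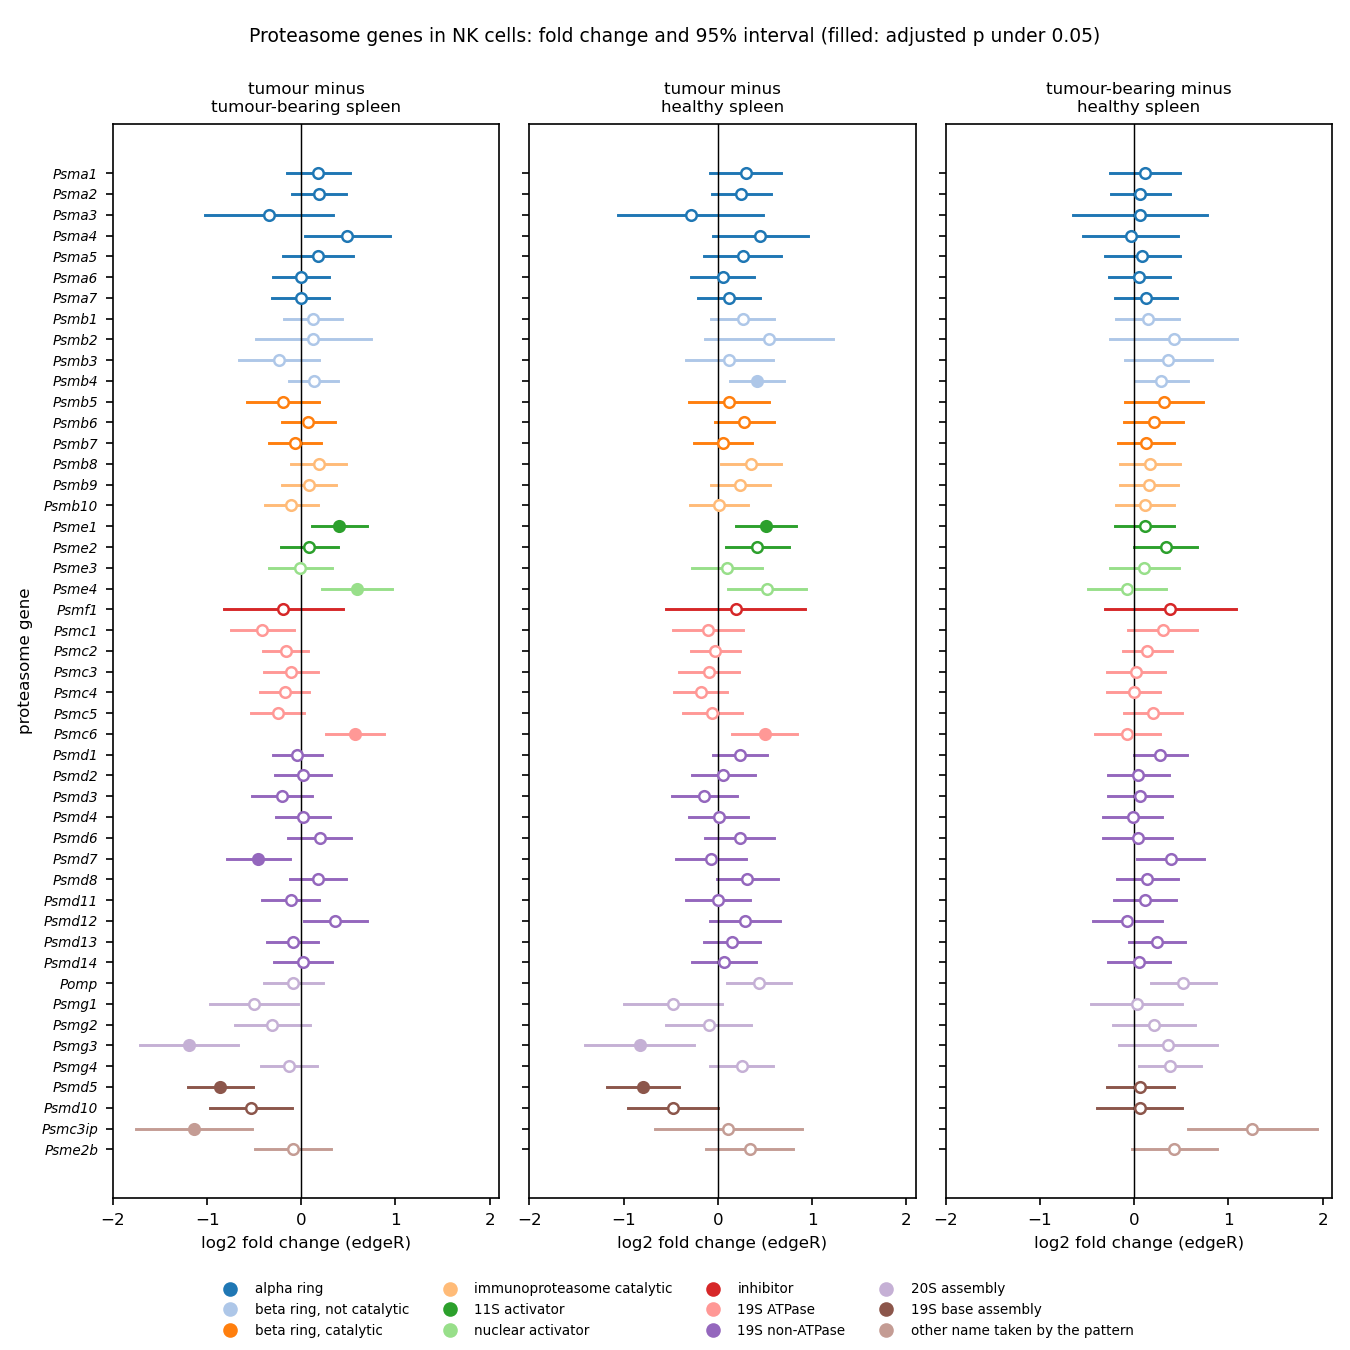
Log2 fold change of each of the 48 proteasome genes tested (rows, coloured by role) in the 3 comparisons of NK groups, with 95% intervals from edgeR as lines and filled points for an adjusted p under 0.05. In the left panel 3 filled points lie to the right and 4 to the left, and in the right panel none is filled.

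None of the 14 constitutive genes of the 20S core was called in tumour against tumour-bearing spleen, where 1 had an unadjusted p under 0.05, and 12 of the 14 log2 fold changes lay within 0.25 of 0. The alpha ring, which gates the barrel, ranged from -0.34 (Psma3) to 0.49 (Psma4, adjusted p = 0.1 in edgeR). Psma4 passed without tumour-bearing replicate 1 (0.61, adjusted p = 0.0488), in a fit of the compared groups alone (0.0391) and with the replicate block (0.0375). Against healthy spleen it passed without healthy replicate 1 (0.75, adjusted p = 0.00763) and with the replicate block (0.0456). The catalytic Psmb5, Psmb6 and Psmb7 had log2 fold changes of -0.20 (95% interval -0.58 to 0.19), 0.08 (-0.21 to 0.36) and -0.07 (-0.35 to 0.21). Psmb6 passed against healthy spleen with an offset for GC content described below (0.41, adjusted p = 0.012), and not without it (0.28, adjusted p = 0.166). For Psmb5, whose product carries the chymotrypsin-like activity, CPM was 75.51, 119.8 and 150.2 in the healthy spleen libraries, 141, 108.8, 175 and 160.6 in the tumour-bearing spleen libraries and 118.9, 140.6, 141.9 and 110.3 in the tumour libraries. The tumour values all lie inside the range of the spleen values.

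Psmb4, a non-catalytic beta subunit, was the core gene called against healthy spleen. Its CPM was 340.6, 404.5 and 383.8 in healthy spleen, 487.1, 473.3, 440.6 and 441.2 in tumour-bearing spleen and 537.8, 442, 494.2 and 539.1 in tumour libraries. All tumour libraries and all tumour-bearing spleen libraries lay above the 3 healthy ones. On the log2 scale Psmb4 was 0.42 higher in tumour than in healthy spleen (SE 0.135, adjusted p = 0.025 in edgeR) and differed by 0.29 between the spleens (adjusted p = 0.433). The tumour call was lost without healthy spleen replicate 1 (adjusted p = 0.0785) or 3 (0.0613), without tumour replicate 1 (0.0596) or 4 (0.0672), with upper-quartile scaling (0.0743), with library totals (0.173) and with a fit of the compared groups alone (0.056).

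None of the 3 immunoproteasome catalytic subunits was called in any comparison. CPM of Psmb8, the chymotrypsin-like immune subunit, was 812.1, 842.7 and 912.8 in healthy spleen, 888, 844, 1011 and 1113 in tumour-bearing spleen and 973.1, 1058, 1300 and 1044 in tumour libraries. The tumour values lay above all healthy values and overlapped the tumour-bearing ones. Its log2 fold change was 0.18 (95% interval -0.11 to 0.48, adjusted p = 0.351 in edgeR) against tumour-bearing spleen and 0.35 (0.03 to 0.68, adjusted p = 0.0887) against healthy spleen. An offset for the GC content of each gene's transcript end, an alternative chosen after the data were seen, moved these to 0.34 (adjusted p = 0.0219) and 0.48 (adjusted p = 0.00365), so the call for Psmb8 rests on that choice.

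For Psmb9, which replaces Psmb6, CPM was 302, 369.2 and 404.4 in healthy spleen, 408.6, 334.3, 402.5 and 459.3 in tumour-bearing spleen and 429.6, 385.5, 415.5 and 468.7 in tumour libraries. Psmb10, which replaces Psmb7, stood at 485.4, 581.1 and 588.5, then 574.7, 555.4, 638.8 and 629.2, then 529.6, 520.2, 676.4 and 496.3 CPM in the same order. The groups overlap for both genes. Against tumour-bearing spleen the log2 fold changes were 0.09 (95% interval -0.20 to 0.37) for Psmb9 and -0.11 (-0.39 to 0.18) for Psmb10.

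**Figure D2:**
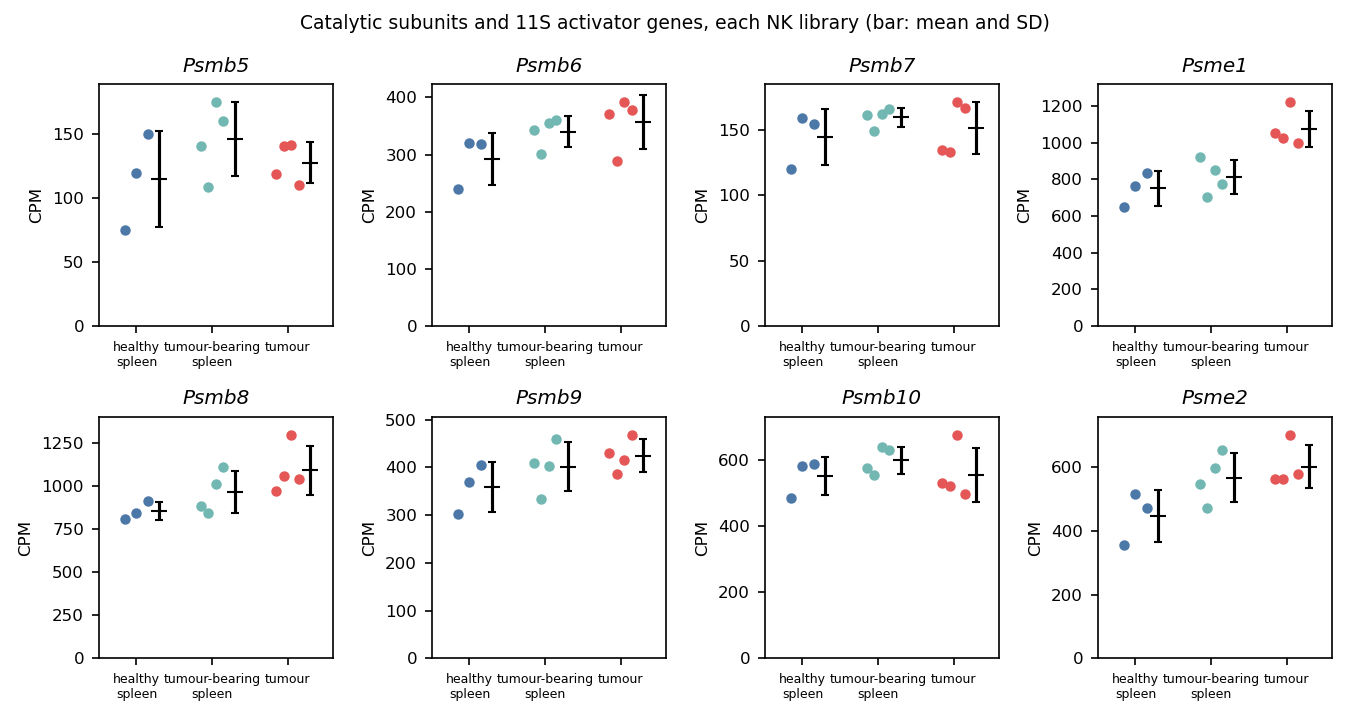
CPM of the 3 constitutive catalytic genes, the 3 immunoproteasome catalytic genes and the 11S activator genes (panels) in each NK library, with the group mean and SD as bars and each vertical axis starting at 0. For Psme1 the tumour libraries all lie above the spleen libraries; for the 6 catalytic genes tumour and tumour-bearing spleen libraries overlap.

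The exchange of constitutive for immune subunits was compared within each library as a log2 ratio of counts, which needs no library scaling. A ratio between genes also depends on how well each transcript end is captured, so only its differences between groups are read. For Psmb8 to Psmb5 the log2 ratio was 3.41, 2.81 and 2.6 in healthy spleen, 2.65, 2.95, 2.53 and 2.79 in tumour-bearing spleen and 3.03, 2.91, 3.19 and 3.24 in tumour libraries. Tumour and tumour-bearing libraries overlap through replicate 2 of each, and healthy replicate 1 is the highest of all. The difference between tumour and tumour-bearing spleen was 0.36 on the log2 scale (exact two-sided permutation p = 0.0571, adjusted p = 0.514 over 9 tests), where the smallest p that 4 against 4 libraries allows is 0.0286. For Psmb9 to Psmb6 and Psmb10 to Psmb7 it was 0.02 and -0.03, with an adjusted p of 0.943 for each in the same exact test. With 3 healthy libraries the smallest p is 0.0571, and even if every ratio reached its smallest p the adjusted p over the 9 tests would be 0.0571. These tests could therefore not call a ratio, and the differences are given as values.

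Psme1 rose in tumour NK cells in both comparisons. It and Psme2 encode the alpha and beta subunits of the 11S ring, which opens the core without ATP. CPM of Psme1 was 650.3, 765.6 and 836.9 in healthy spleen, 923, 703.3, 848.3 and 776.8 in tumour-bearing spleen and 1052, 1027, 1219 and 1000.0 in tumour libraries. Every tumour library lay above every spleen library. Psme1 rose by a log2 fold change of 0.40 (SE 0.139, adjusted p = 0.0349 in edgeR) against tumour-bearing spleen and 0.52 (SE 0.152, adjusted p = 0.0145) against healthy spleen. The first call was lost without tumour-bearing spleen replicate 2 (adjusted p = 0.104), 3 (0.0673) or 4 (0.0832), without tumour replicate 1 (0.0592) or 3 (0.1), with upper-quartile scaling (0.0973), with library totals (0.0642) and against either side of the spleen libraries alone (0.146 and 0.0912). The second was lost without healthy spleen replicate 2 (0.05, just past the threshold) and with library totals (0.0549).

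Psme2 was not called. Its CPM was 356, 515.2 and 469.6 in healthy spleen, 545, 472.2, 595 and 652.4 in tumour-bearing spleen and 563.2, 562.2, 701.1 and 576.2 in tumour libraries. Tumour libraries lay above the healthy ones, and all but replicate 3, the highest, lay among the tumour-bearing ones. The log2 fold changes were 0.42 (adjusted p = 0.0543 in edgeR) against healthy and 0.09 (adjusted p = 0.696) against tumour-bearing spleen, and the first was 0.46 (adjusted p = 0.0151) with the GC offset. With 1 library left out the first ranged from 0.27 without healthy replicate 1 to 0.54 without healthy replicate 2, not called in either. The annotation places Emc9 across Psme1 on the other strand, and whether counting used the strand is not stated in the sources used here.

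Psme4 (PA200), a nuclear activator known for acting on histones, rose in tumour NK cells. CPM was 61.64, 41.73 and 41.27 in healthy spleen, 50.31, 52.47, 35.52 and 39.78 in tumour-bearing spleen and 70.5, 72.45, 58.32 and 68.46 in tumour libraries. All tumour libraries lay above the tumour-bearing ones, and the lowest of them lay below healthy replicate 1. Psme4 was 0.59 higher on the log2 scale than in tumour-bearing spleen (SE 0.176, adjusted p = 0.0162 in edgeR) and differed from healthy spleen by 0.52 (adjusted p = 0.0536). Against tumour-bearing replicates 1 and 2 alone the difference was 0.38 (adjusted p = 0.234), and the call was also lost without tumour-bearing replicate 3 (0.0736) and with library totals (0.0807). Against healthy spleen it passed without healthy replicate 1 (0.67, adjusted p = 0.0159) and with the replicate block (0.54, adjusted p = 0.0359). Psme3, the other nuclear activator, had -0.01 against tumour-bearing spleen (95% interval -0.35 to 0.33).

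In the 19S cap, 1 of 17 genes rose and 1 fell against tumour-bearing spleen, 11.8% where 29.0% of all genes were called. Psmc6, an ATPase of the base ring, had CPM of 131, 108.1 and 81.71 in healthy spleen, 105.9, 116.7, 92.65 and 86.07 in tumour-bearing spleen and 166.4, 142, 144.3 and 142.6 in tumour libraries. Every tumour library lay above every spleen library. On the log2 scale Psmc6 rose by 0.57 over tumour-bearing spleen (SE 0.149, adjusted p = 0.00694 in edgeR) and by 0.50 over healthy spleen (SE 0.165, adjusted p = 0.0282). The end of its transcript has a GC content of 29.8%, the lowest of the tested proteasome genes, and with the GC offset the differences were 0.19 (adjusted p = 0.321) and 0.12 (adjusted p = 0.57).

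The first call of Psmc6 was also lost with library totals (adjusted p = 0.0533) and against tumour-bearing replicates 1 and 2 alone (0.117). The call against healthy spleen was lost without healthy replicate 2 (0.0755) or 3 (0.187), without tumour replicate 1 (0.0787), with upper-quartile scaling (0.0768), with library totals (0.255) and in a fit of the compared groups alone (0.0533). The other 5 ATPases had log2 fold changes below 0 against tumour-bearing spleen, from -0.11 (Psmc3) to -0.41 (Psmc1, adjusted p = 0.0634 in edgeR), and none was called. For Psmc1 and Psmc2 every tumour library nonetheless lay below every tumour-bearing one. Psmc1 passed as lower without tumour-bearing replicate 1 (adjusted p = 0.0344) or tumour replicate 4 (0.0462), and with upper-quartile scaling (0.0189), library totals (0.00819) and no filter on low counts (0.0467). It also passed with the replicate block (0.0382), the compared groups alone (0.0263) and spleen replicates 3 and 4 alone (0.0249).

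Psmd7, a lid subunit that partners the deubiquitinase Psmd14, fell against tumour-bearing spleen. CPM was 63.18, 78.65 and 86.66 in healthy spleen, 99.85, 87.07, 103.5 and 113.5 in tumour-bearing spleen and 81.98, 56.51, 65.54 and 88.42 in tumour libraries. Tumour replicate 4 overlaps tumour-bearing replicate 2, and the tumour libraries span the healthy ones. Psmd7 fell by 0.45 on the log2 scale (SE 0.158, adjusted p = 0.037 in edgeR) against tumour-bearing spleen and had a difference of -0.07 (adjusted p = 0.8) against healthy spleen. Without tumour-bearing replicate 3 or 4 the adjusted p was 0.0721 or 0.0914, without tumour replicate 2 or 3 it was 0.118 or 0.0874, and against tumour-bearing replicates 1 and 2 alone 0.249, so the call was lost in each. The other non-ATPases ranged from -0.21 (Psmd3, adjusted p = 0.325) to 0.36 (Psmd12, adjusted p = 0.095), and edgeR called none. Against spleen replicates 3 and 4 alone Psmd3 passed as lower (-0.45, adjusted p = 0.0349) and Psmd12 as higher (0.0477). Against healthy spleen Psmd12 passed without healthy replicate 1 (0.0479).

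Assembly factors held the 2 largest falls among the genes known to act in the proteasome. All 7 that were tested had log2 fold changes below 0 against tumour-bearing spleen, with a median of -0.50, and 2 were called, 28.6% where 29.0% of all genes were. Against healthy spleen 5 of the 7 were below 0 and 2 above, up to 0.44 (Pomp), and 2 were called, 28.6% where 30.5% of all genes were. Psmg3 encodes PAC3, a chaperone of the alpha ring. Its CPM was 18.49, 41.2 and 48.7 in healthy spleen, 44.97, 45.21, 46.84 and 58.58 in tumour-bearing spleen and 22.13, 11.59, 21.65 and 27.57 in tumour libraries. Every tumour library lay below every tumour-bearing one, while healthy replicate 1, the library with the fewest counts, lay among the tumour values.

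Psmg3 fell by 1.19 on the log2 scale against tumour-bearing spleen (SE 0.248, adjusted p = 0.00121 in edgeR), and it was called under all 18 alternatives, from -1.33 to -1.03. Against healthy spleen it was -0.83 (SE 0.276, adjusted p = 0.0287), and this call was lost without healthy replicate 2 (0.121) or 3 (0.176) and without tumour replicate 1 (0.0568), 2 (0.0755) or 3 (0.0529). These levels rest on 8 to 91 counts per library. A further gene model, Gm26938, overlaps Psmg3 on the same strand, so reads may have been assigned to either or to neither.

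Psmd5, which holds the ATPase Psmc2 during assembly of the base, fell by 0.86 on the log2 scale against tumour-bearing spleen (SE 0.167, adjusted p = 0.000643 in edgeR) and by 0.79 against healthy spleen (SE 0.183, adjusted p = 0.00265). CPM was 58.56, 60.46 and 48.7 in healthy spleen, 60.98, 48, 59.71 and 65.82 in tumour-bearing spleen and 34.43, 31.88, 28.86 and 34.23 in tumour libraries. The highest tumour value lies below the lowest spleen value. Both calls held under every alternative run, 18 for the first comparison (-0.99 to -0.75) and 15 for the second (-0.995 to -0.717). Between the spleens the difference was 0.06 (95% interval -0.29 to 0.42). Cutal overlaps Psmd5 on the other strand in the annotation.

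The remaining assembly factors were not called. Psmd10 (gankyrin), which holds Psmc4, had CPM of 41.61, 61.53 and 40.44 in healthy spleen, 60.22, 50.24, 49.93 and 44.12 in tumour-bearing spleen and 46.73, 23.19, 30.66 and 38.03 in tumour libraries, with a log2 fold change of -0.53 (adjusted p = 0.059 in edgeR) against tumour-bearing spleen. Psmg1 had -0.50 (adjusted p = 0.101), Psmg2 -0.31 (adjusted p = 0.251) and Psmg4 -0.13 (adjusted p = 0.543). Psmd10 passed as lower without tumour replicate 1 (-0.71, adjusted p = 0.0262), with the GC offset (-0.84, 0.0105), and with upper-quartile scaling (0.0245), library totals (0.0232), no filter (0.0463) or the compared groups alone (0.0377). Psmg1 passed with upper-quartile scaling (0.0476) or library totals (0.0478), and Psmg2 against spleen replicates 3 and 4 alone (0.0382). Against healthy spleen Psmd10 passed as lower with the GC offset (0.0212) or library totals (0.0316). In that comparison Psmg1 passed as lower with library totals (0.0485) and Psmg4 as higher with the GC offset (0.42, 0.038).

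Pomp, the chaperone that brings beta subunits together and is used up as the core matures, was not called in any comparison. CPM was 184.9, 244 and 276.5 in healthy spleen, 368.2, 314.2, 327.4 and 350.8 in tumour-bearing spleen and 359.9, 239.1, 354.1 and 323.3 in tumour libraries. All tumour-bearing libraries lay above the healthy ones, and tumour replicate 2 lay among the healthy ones. The difference between the spleens was 0.52 on the log2 scale (SE 0.164, adjusted p = 0.139 in edgeR), that between tumour and healthy spleen 0.44 (adjusted p = 0.0506) and that between tumour and tumour-bearing spleen -0.09 (95% interval -0.40 to 0.23). Without tumour replicate 2 the middle value was 0.55 (adjusted p = 0.015), without healthy replicate 3 0.57 (0.0353) and with the GC offset 0.40 (0.0498), all past the threshold. Without healthy replicate 1 it was 0.28 and was not called.

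**Figure D3:**
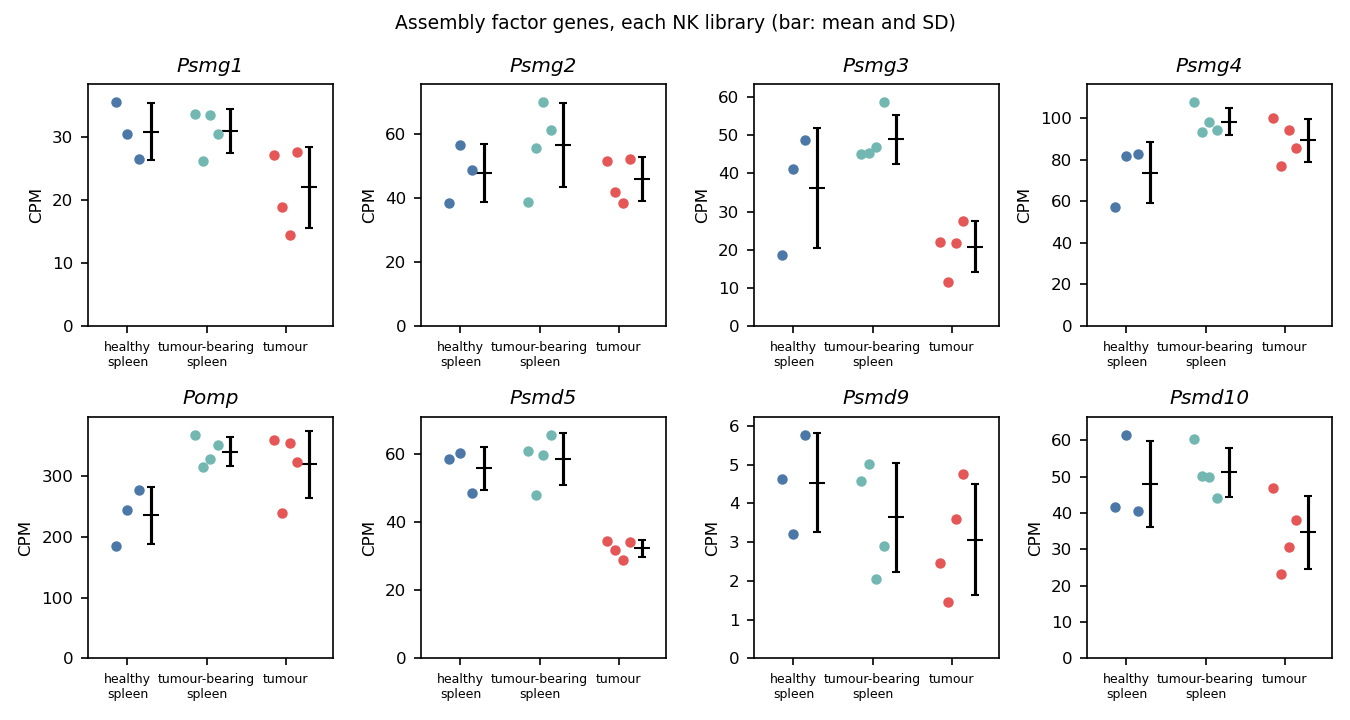
CPM of the 8 assembly factor genes (panels) in each NK library, with group means and SDs as bars and each vertical axis starting at 0. For Psmd5 the tumour libraries, 28.86 to 34.43, all lie below the spleen libraries; for Psmg3 healthy replicate 1, at 18.49, lies among the tumour libraries; Psmd9 was too low to test.

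Psmc3ip, whose product is a partner of meiotic recombinases and carries the proteasome prefix for its binding to Psmc3, fell in tumour against tumour-bearing spleen NK cells. CPM was 7.705, 6.955 and 6.603 in healthy spleen, 19.82, 13.95, 19.04 and 14.46 in tumour-bearing spleen and 7.378, 4.347, 10.82 and 5.705 in tumour libraries. The tumour-bearing spleen libraries lie above all the others. It fell by 1.14 on the log2 scale in tumour against tumour-bearing spleen (SE 0.294, adjusted p = 0.00637 in edgeR), and this call held under all 18 alternatives. Between the spleens the difference was 1.25 (adjusted p = 0.0633), and 1.24 (adjusted p = 0.0438) with the GC offset. These values rest on 3 to 37 counts per library, and Mlx overlaps the gene on the other strand.

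The side of the spleen libraries touched these results. Taking tumour-bearing replicates 1 and 2 alone, 0 of the 48 genes rose and 3 fell (Psmg3, Psmd5 and Psmc3ip, the last not a proteasome subunit), and 17.4% of all genes were called. With replicates 3 and 4 alone 3 rose and 7 fell, where 32.6% were called. For Psmb8 the difference was 0.34 against the first side and 0.01 against the second, and for Psmb5 0.04 and -0.43. Across the 48 genes, the difference between the sides had a Spearman rho of -0.585 with transcript-end GC content, a description over genes that share the same libraries.

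**Figure D4:**
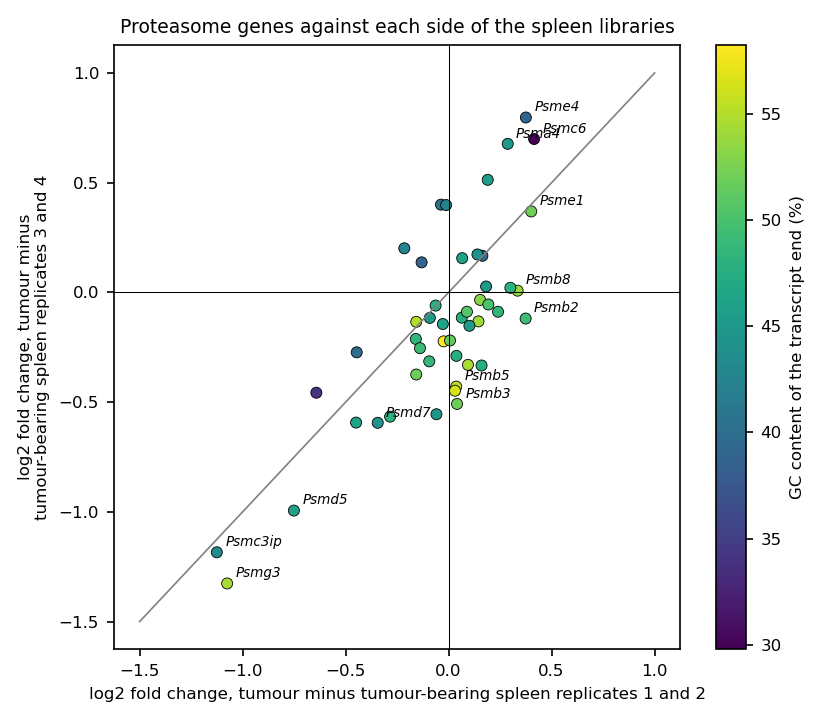
Log2 fold change of the 48 proteasome genes in tumour NK cells against tumour-bearing spleen replicates 1 and 2 (horizontal) and against replicates 3 and 4 (vertical), coloured by the GC content of the transcript end, with the diagonal as a grey line. Psmg3, Psmd5 and Psmc3ip lie at the lower left against either side, and genes of high GC content such as Psmb5 and Psmb3 lie below the diagonal.

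The spleen libraries alone were also fitted with the side as a block. The sides were read from distances between these same libraries, taken within each group, and the adjusted p-values take no account of that. Placing healthy replicate 1 with tumour-bearing replicates 1 and 2 was a choice that these distances do not make. Deviations from the group mean correlated at r = 0.501, -0.353 and 0.348 between healthy and tumour-bearing replicates 1, 2 and 3 of the same number. Healthy replicate 1 was the only healthy library on its side. Of all genes this fit called 8.34%. Of the 48 it called 8 genes higher in tumour-bearing than in healthy spleen and 0 lower. They were Pomp at 0.55 (adjusted p = 0.00183 in edgeR), Psme2 at 0.40 (0.0142), Psmd7 at 0.44 (0.0258), Psmb5 at 0.44 (0.0325) and Psmc3ip at 1.26 (0.0101), with Psmb2 at 0.57 (0.011), Psmb3 at 0.51 (0.00427) and Psmc1 at 0.39 (0.0355). The fit without the block called none of them, so a difference between the spleens rests on that choice.

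The pathway lists below were chosen with earlier results of these data known, and none was tested as a set. Most of the listed genes that load peptides on MHC class I rose in tumour NK cells. Of 11 such genes 9 rose against tumour-bearing spleen, where 15.8% of all genes did, with a median log2 fold change of 0.59, and 8 rose against healthy spleen, where 16.5% did, with a median of 0.88. Among them were B2m, the light chain of class I, at 0.74 (adjusted p = 0.00148 in edgeR), Tap1, a subunit of the peptide transporter, at 0.65 (0.000496), and Pdia3, a chaperone of the loading complex, at 0.62 (0.00513). Against healthy spleen the largest rises were those of Pdia3 at 1.3 (1.61e-05) and the chaperones Calr at 1.13 (4.71e-05) and Canx at 0.97 (0.00828). Tap2, the partner of Tap1, was not called in either comparison, with 0.10 (0.671) and 0.24 (0.322), nor was Erap1, which trims peptides, with 0.13 (0.742) and 0.24 (0.567).

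Of 10 regulators of proteasome genes tested, 4 rose against tumour-bearing spleen (40.0%, against 15.8% of all genes) and 4 against healthy spleen (40.0%, against 16.5%). Nlrc5, the transactivator of class I genes, rose by 0.82 (adjusted p = 0.00144 in edgeR) and 1.15 (0.000215). Irf1, an interferon-induced activator of the immune subunits, rose by 0.49 (0.0169) in the first comparison and had 0.32 (0.139) in the second. Nfe2l1 (NRF1), which drives the constitutive genes when proteasome activity is short, had 0.22 (0.35) in the first and rose by 0.70 (0.0103) in the second. Nfe2l2 (NRF2) rose by 0.61 (0.0254) in the first and had 0.50 (0.0915) in the second. In the first, tumour replicate 4, at 93.18 CPM of Nfe2l2, lay below tumour-bearing replicate 1, at 94.52.

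Rps27a, which encodes ubiquitin fused to a ribosomal protein, rose by 1.00 (adjusted p = 0.000276 in edgeR) against tumour-bearing spleen and by 1.09 (0.000306) against healthy spleen. Of 13 proteasome-associated genes tested, of 19 listed, 30.8% were called against tumour-bearing spleen, where 29.0% of all genes were, with 3 that rose and 1 that fell: the deubiquitinase Uchl5 at 1.06 (0.0454), Zfand6 at 0.56 (0.00395), the cap subunit Sem1 at 0.37 (0.0454) and the shuttle factor Ubqln4, which fell by 0.55 (0.0205). In tumour against healthy spleen 2 of them rose (15.4%, against 16.5% of all genes), Zfand6 at 0.56 (0.0081) and Sem1 at 0.54 (0.0103). Uchl5 had 1.10 (0.0635) there and was not called. Healthy replicate 1, at 81.67 CPM of Uchl5, lay among the tumour libraries (79.52 to 130.4). The tumour-bearing libraries stood at 72.41, 66.42, 33.46 and 26.04 CPM, and the end of the Uchl5 transcript has a GC content of 31.8%. Between the spleens edgeR called none of the genes on these lists, where 2 of the loading genes, 2 regulators and 2 associated genes had an unadjusted p under 0.05. Of the loading genes, DESeq2 called 2 higher in tumour-bearing than in healthy spleen, and edgeR called 2 with the GC offset and 3 with the side as a block.

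Tap1 and Psmb9 share the 225 bases printed above, and their values differed in the tumour. The log2 ratio of Tap1 to Psmb9 counts was -0.94, -1.29 and -1.31 in healthy spleen, -1.26, -0.86, -1.18 and -1.13 in tumour-bearing spleen and -0.45, -0.36, -0.73 and -0.66 in tumour libraries. Every tumour library lay above every spleen library, with means of -0.55 ± 0.17 (SD, n = 4) in tumour and -1.11 ± 0.17 (SD, n = 4) in tumour-bearing spleen. This pair was chosen after its values were seen and is given with no test. In the annotation the genes overlap on opposite strands.

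**Figure D5:**
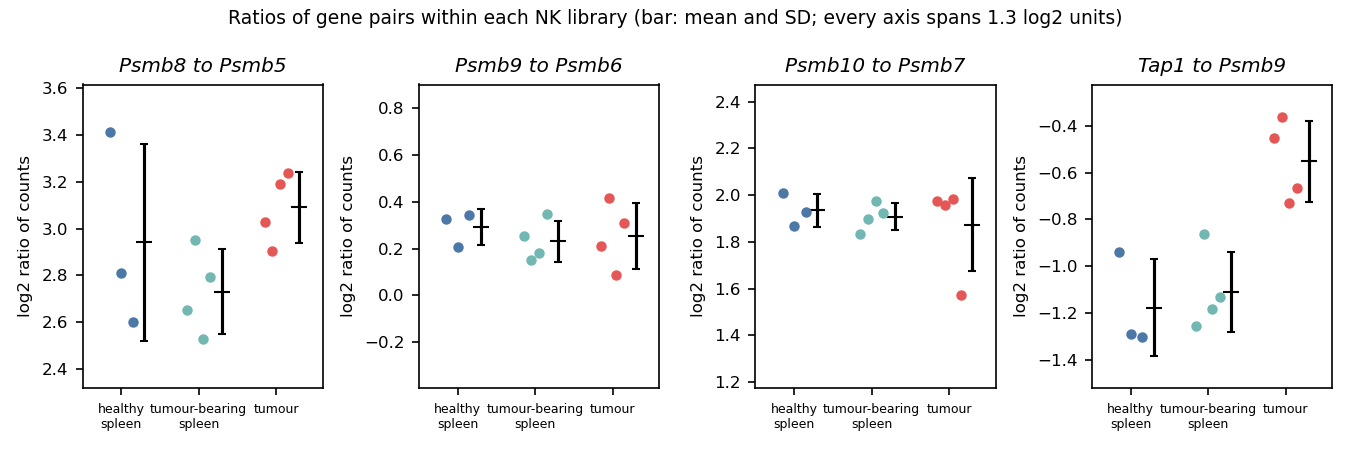
Log2 ratio of counts for 3 pairs of immune and constitutive catalytic genes and for Tap1 to Psmb9 (panels) in each NK library, with group means and SDs as bars and a span of 1.3 log2 units on each vertical axis. Groups overlap for the first 3 pairs, and for Tap1 to Psmb9 the tumour libraries, -0.73 to -0.36, lie above all spleen libraries.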

How the data were processed

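Bulk 3′ end RNA-seq libraries of sorted NK cells (11) and sCAFs (3) were used. The authors deposited raw counts per gene symbol in 2 tables. The submitters' processing notes name bcl2fastq, STAR 2.4.2a, HTSeq and the build mm10, without their settings; use of strand and of molecular identifiers is not given in the sources used here. No gene of the NK table stayed below 6 counts throughout, so a filter on low values preceded deposit. In the table's header, tumour replicates 3 and 4 are separated by spaces and were read by position. Counts of 3′ ends are not divided by length, so levels are not compared between genes.

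Genes were kept with filterByExpr, scaled by TMM (factors 0.9096 to 1.168) and fitted in edgeR 4.0.16 (R 4.3.3, quasi-likelihood, robust) over all 11 NK libraries with group as the only term. Fold changes are log2 values, SE is the log2 fold change divided by the root of F, and intervals are at 95%. The ratio of 2 genes used a prior count of 0.5 and an exact two-sided permutation test (scipy 1.17.1). The edgeR step was tested on simulated data. Libraries of 1 group differed by more than sampling noise (chi-square per degree of freedom at least 2.075), so none was merged.

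Alternatives were median-ratio, upper-quartile or no scaling factors, no filter on low counts, DESeq2 1.42.0, only the groups compared, a replicate block, each library left out, each side of the spleen libraries and, added after seeing the data, an offset for GC content over the last 500 bases of transcripts (GENCODE M21). Sequences come from RefSeq on GRCm38.p6. The members and lists were chosen with earlier results of these data known. Always named were the catalytic genes, Psme1, Psme2 and Pomp. The rule also takes the 5 largest called rises and falls in each comparison, members of note by class or without overlap, the 3 largest called changes of the pathway lists, and Irf1, Nlrc5 and Nfe2l1; some results under this rule are not reported here. Sem1, Tap2, Erap1, Psmg2, Psmd9 and the Tap1 to Psmb9 ratio were chosen after their values were seen.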

Additional observations from a re-analysis of the deposited data

Results flagged for a closer look

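Of 32 groups of 4 NK libraries tested over 16 named genes, 3 held a library set apart from the others by Dixon's gap test, where chance flags about 1 in 20 groups. Psme2 in tumour replicate 3 stood at 701.1 CPM with the next library at 576.2. Psmg3 in tumour-bearing spleen replicate 4 stood at 58.58 CPM with the next at 46.84. Psmc6 in tumour replicate 1 stood at 166.4 CPM with the next at 144.3. Leaving out the library named changed no call of its gene against tumour-bearing spleen, and for Psmc6 it ended the call against healthy spleen (adjusted p = 0.0787 in edgeR).

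The sCAF libraries, which enter no comparison of the NK groups, held all 49 genes. Their log2 ratio of Psmb8 to Psmb5 was 4.41 ± 0.25 (SD, n = 3), against 2.53 to 3.41 over the NK libraries. The ratio of Psmb10 to Psmb7 was 2.90 ± 0.34 (SD, n = 3), against 1.57 to 2.01. For Psmb9 to Psmb6 the mean was -0.56 ± 0.60 (SD, n = 3), with sCAF libraries at 0.03, -0.54 and -1.18 against 0.09 to 0.42. All 3 sCAF libraries lay outside the NK range in each pair, and the difference was not tested, since the tables were made separately.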

How the results depend on the processing

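Against tumour-bearing spleen (3 rose, 4 fell), the number that fell was 7 with upper-quartile scaling, 9 with library totals and 7 against spleen replicates 3 and 4 alone, and the number that rose was 0 with library totals and 0 against replicates 1 and 2 alone. With 1 library left out, 1 to 4 rose and 3 to 5 fell. Against healthy spleen (3 rose, 2 fell), 1 rose with upper-quartile scaling, 0 with library totals, where 5 fell, 7 with the GC offset and 1 with only the groups compared; with 1 library left out, 1 to 5 rose and 1 to 2 fell. Between the spleens (0 and 0), 1 rose with the GC offset (Psmc3ip) and 8 with the side of the spleen libraries as a block; with 1 library left out 0 rose and 0 fell.

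Library totals moved the median of all genes to -0.12 and -0.18 in the tumour comparisons, and the share of calls that were higher from 54.5% to 37.7% and from 54.2% to 32.8%; with upper-quartile scaling it was 41.6% and 42.4%. Between same-numbered libraries, the correlation of deviations ranged from r = -0.353 to 0.501. Whether such libraries came from the same mice was not tested. With the replicate block 5 rose against healthy spleen, and against tumour-bearing spleen 4 rose and 5 fell. Of 201 repeats of fold changes called in the main fit none changed sign. Of 567 repeats called neither in the main fit nor in the alternative beside it, 37 did. With 8 to 91 counts for Psmg3 and 3 to 37 for Psmc3ip, counting error is a larger part of their spread.

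Of the 11 MHC class I loading genes, 7 rose against tumour-bearing spleen with library totals and 7 with upper-quartile scaling, 5 against spleen replicates 1 and 2 alone and 4 against replicates 3 and 4 alone, while against healthy spleen 8 rose under both scalings. None of the 11 fell in either tumour comparison under these alternatives. Between the spleens 1 of them rose with the replicate block. Of the 13 proteasome-associated genes, the 3 that rose against tumour-bearing spleen became 1 with upper-quartile scaling, library totals, no filter on low counts or spleen replicates 1 and 2 alone, and the 2 against healthy spleen became 0 with library totals and 4 with the replicate block. Of the 10 regulators, 2 rose and 1 fell against healthy spleen with library totals.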
